A study of Mus musculus with 6 samples.

Results

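The creatine kinase system of the aorta was described across 6 RNA-seq libraries of whole mouse aorta. Its 7 genes were Ckm, Ckb, Ckmt1 and Ckmt2, which encode creatine kinases, Gatm and Gamt, which encode the enzymes of creatine synthesis, and Slc6a8, which encodes the creatine transporter. They were taken by symbol from the 55487 genes of the table, and each symbol had a single entry. The group was chosen by function around Ckm, which was already known to be far higher in the knockout libraries of this comparison. The difference of Ckm and every share that contains it are therefore given as a description, with no test. The other genes came in by name.

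The tested animals were mice labelled as having Ogt knocked out specifically in smooth muscle cells, with 3 libraries, and the comparison animals were mice with a LoxP-flanked Ogt gene, with 3 libraries. The titles of both groups begin with SM22, another name of transgelin, a protein of smooth muscle. The Cre line, the presence of Cre in controls, and the age, sex and number of mice per library are not given in the labels. Nothing says that the libraries came from separate mice, so each p-value measures spread among libraries that may be partly technical. RNA came from the whole vessel, so fewer cells of a type and less RNA per cell cannot be told apart.

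Creatine kinases move a phosphate group reversibly between ATP and creatine, which lets cells with bursts of ATP use hold a reserve as phosphocreatine. Ckm encodes the muscle subunit and Ckb the brain subunit of the cytosolic dimers, and the brain type is the usual one in smooth muscle. Ckmt1 and Ckmt2 encode the ubiquitous and the sarcomeric enzyme of the mitochondrial intermembrane space. Gatm makes guanidinoacetate from arginine and glycine, Gamt methylates it to creatine, and Slc6a8 brings creatine into the cell.

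Total counts ran from 11845644 to 18218385 in knockout libraries and from 3038782 to 13738958 in control libraries. The shallowest was control replicate 2, in which mitochondrial ribosomal RNA took 10.2% of counts, against 0.491% to 0.823% in the other 5 libraries. Ogt, the deleted gene, had 93.3, 73.5 and 70.9 CPM in knockout replicates 1 to 3, against 177, 183 and 150 CPM in control replicates 1 to 3 (CPM: counts scaled to the TMM-adjusted library size). It was lower in every knockout library (log2 fold change -1.10, SE 0.15; adjusted p = 0.0214 by the quasi-likelihood test of edgeR). With a library left out it passed in 2 of 6 fits, those without control replicate 2 or 3, with adjusted p-values from edgeR of 0.0247 to 0.126 over the 6.

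The promoter windows of the cytosolic pair Ckm and Ckb are shown because these were the 2 creatine kinase genes with more than a few reads, and 1 of them differed between the groups while the other did not. Each window holds 250 bases before and 50 bases after the RefSeq start site (GRCm38.p6), read 5′ to 3′ on the strand of the gene. Capitals mark matches to the motifs named after them.
Ckm, chr7:19410844-19411143, plus strand: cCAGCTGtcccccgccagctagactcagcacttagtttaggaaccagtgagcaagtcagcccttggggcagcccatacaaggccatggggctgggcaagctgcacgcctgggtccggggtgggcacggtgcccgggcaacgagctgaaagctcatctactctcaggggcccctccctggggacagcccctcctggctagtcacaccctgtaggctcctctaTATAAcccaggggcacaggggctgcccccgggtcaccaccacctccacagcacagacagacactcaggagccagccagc
Ckb, chr12:111672289-111672588, minus strand: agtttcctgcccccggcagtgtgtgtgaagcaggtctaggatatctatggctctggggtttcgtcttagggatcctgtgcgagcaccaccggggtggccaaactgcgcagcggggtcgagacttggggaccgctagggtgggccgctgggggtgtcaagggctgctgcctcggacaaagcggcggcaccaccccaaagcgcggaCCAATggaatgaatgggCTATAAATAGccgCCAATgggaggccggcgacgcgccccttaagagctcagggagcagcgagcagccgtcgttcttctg

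The search covered both strands. It looked for the E-box (CANNTG), for the TATA sequence TATAA, for the sequence CCAAT of many promoters, for the GC box (GGGCGG), and for the CArG box and the MEF2 motif of muscle genes. The Ckm window held TATAA at -29 to -25 from the start site and 1 E-box at -249 to -244. The Ckb window held TATAA at -28 to -24, inside a MEF2 match at -29 to -20, and CCAAT at -46 to -42 and at -16 to -12. No CArG box or GC box was found in either window. Among 32851 RefSeq promoter windows of the same length, 72.3% held an E-box, 24.9% TATAA, 37.4% CCAAT, 35.7% a GC box, 1.63% a CArG box and 3.19% a MEF2 match. These are matches of letters only, and whether any factor acts there was not measured. Promoter windows were matched for 6 of the 7 genes.

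Ckm (ENSMUSG00000030399; GRCm38 chromosome 7, 19404776 to 19422841, plus strand) was abundant only in the knockout aorta among these 6 libraries. Knockout replicates 1 to 3 had 740, 722 and 872 counts, which is 63.0, 42.5 and 47.5 CPM. Control replicates 1 to 3 had 41, 8 and 52 counts, which is 2.82, 2.97 and 3.78 CPM. Every knockout library lay above every control library, and the gap between the groups was wider than the range within either.

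Ckm averaged 51.0 ± 10.7 CPM in knockout libraries and 3.19 ± 0.518 CPM in control libraries (SD, n = 3 each). The edgeR log2 fold change was 3.97 ± 0.22 (SE), a 15.7-fold higher level in the knockout. It had the second highest log2 fold change of the 15388 tested genes with a mean of at least 1 CPM, after Tjp3, a tight junction gene with 0 counts in every control library. With each library left out in turn the log2 fold change ran from 3.80 to 4.15, and it was 3.95 without the shallow control replicate 2. The value of control replicate 2 itself rests on 8 reads.

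Ckb (ENSMUSG00000001270; chromosome 12, 111669361 to 111672338, minus strand) had the same mean level in both groups to within the spread of the libraries. Knockout replicates 1 to 3 had 172, 139 and 155 CPM, against 167, 131 and 167 CPM in control replicates 1 to 3. The groups overlapped over most of their range. Mean expression was 155 ± 16.3 CPM in knockout libraries and 155 ± 20.5 CPM in control libraries (SD, n = 3 each). The difference was 0.00 on the log2 scale (SE 0.14; edgeR adjusted p = 0.996). Its 95% interval ran from -0.33 to 0.34, that is from 0.794-fold to 1.26-fold. Changes inside that range are compatible with these values, and the interval is not a limit of detection.

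The mitochondrial creatine kinases were at the detection limit in whole aorta. Ckmt1 (ENSMUSG00000000308; chromosome 2, 121357714 to 121363737) had 0 counts in all 6 libraries. Ckmt2 (ENSMUSG00000021622; chromosome 13, 91853387 to 91876885) had 2 counts in knockout replicate 2 and 0 counts in the other 5 libraries. A count of 0, taken to allow up to 3 counts, allows up to 0.164 to 0.255 CPM in a knockout library and up to 0.206 to 1.11 CPM in a control library. These limits cover counting error only. Neither gene passed the filter on low counts, and neither was tested.

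**Figure D1:**
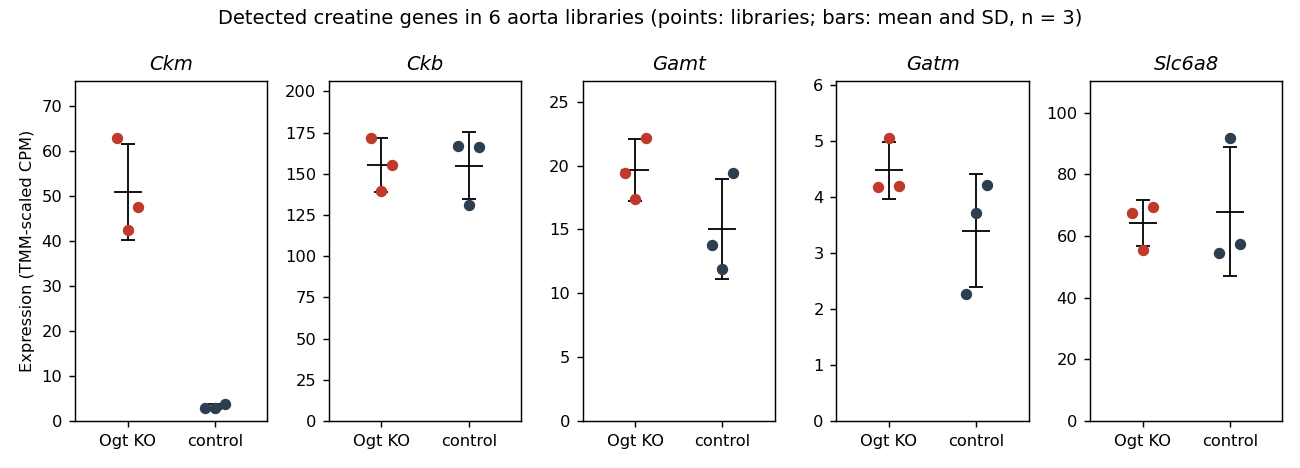
Expression of the 5 creatine genes that passed the count filter, in TMM-scaled CPM on linear axes that start at 0 and differ between panels; points are libraries, and bars are mean and SD of 3 libraries, with Ogt knockout left and control right. Ckm sits between 42.5 and 63.0 CPM in knockout libraries and between 2.82 and 3.78 CPM in control libraries, while the groups of the other 4 genes overlap.

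The 4 creatine kinase genes were next set against each other within each library, which needs no scaling between libraries. On the deposited FPKM, a count scaled to gene length and library total, Ckm made up 38.2%, 33.9% and 34.1% of the summed creatine kinase level in knockout replicates 1 to 3, against 2.78%, 3.68% and 3.69% in control replicates 1 to 3. Ckb made up the remainder apart from Ckmt2, which had 0.213% in knockout replicate 2. The share of Ckm averaged 35.4% ± 2.43 in knockout libraries and 3.38% ± 0.526 in control libraries (SD, n = 3 each). The 6 libraries fell into the labelled groups with no overlap, which follows from the way Ckm came to be chosen.

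In reads rather than length-scaled levels, Ckm took 26.8% of the creatine kinase counts in knockout replicate 1 (exact Clopper-Pearson 95% interval 25.2% to 28.5%). It took 23.3% in knockout replicate 2 (21.9% to 24.9%) and 23.5% in knockout replicate 3 (22.1% to 24.9%). In the controls the share was 1.66% in replicate 1 (1.19% to 2.25%), 2.21% in replicate 2 (0.959% to 4.31%) and 2.22% in replicate 3 (1.66% to 2.90%). The 3 control intervals overlap one another, and so do those of knockout replicates 2 and 3, while that of knockout replicate 1 lies above both. These intervals cover counting error only, since reads need not be independent molecules. Ckb took 73.2%, 76.6% and 76.5% of the counts in knockout replicates 1 to 3, against 98.3%, 97.8% and 97.8% in control replicates 1 to 3. The 0 counts of Ckmt1 allow a share of up to 0.0807% to 0.109% in knockout libraries and up to 0.122% to 0.829% in control libraries.

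The size of the Ckm share depended on the length assigned to each gene. The lengths behind the deposited FPKM were 3374 bases for Ckm and 5703 bases for Ckb, each equal to the sum of all distinct annotated exons, with overlapping exons counted again. Ckb has 5 annotated transcripts, 4 of them with a retained intron, so its exons overlap, while its principal transcript is 1472 bases long. That of Ckm is 2742 bases. With counts divided by the length of the principal transcript, a choice made after seeing the data, Ckm made up 14.9% ± 1.35 of the total in knockout libraries and 1.10% ± 0.175 in control libraries (SD, n = 3 each). With the union of all exons the values were 24.4% ± 1.96 in knockout libraries and 2.02% ± 0.318 in control libraries. Ckb was the largest of the 4 in each library on all of these scales.

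**Figure D2:**
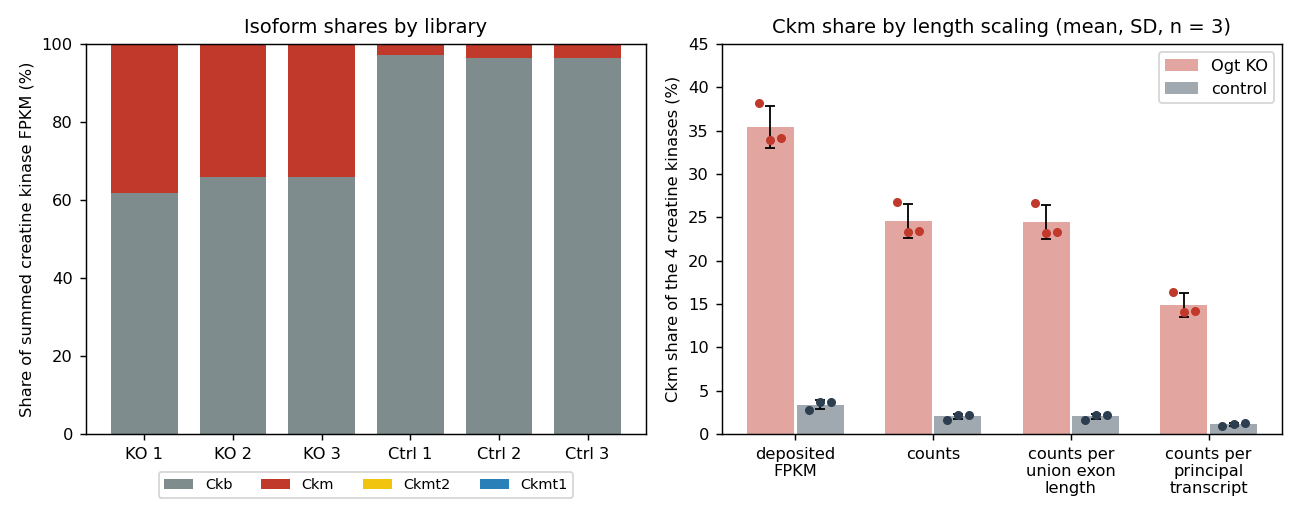
Left, share of each creatine kinase gene in the summed FPKM of the 4 genes (percent) in each library, Ogt knockout (KO) left of control (Ctrl). Right, the Ckm share under 4 ways of scaling for length, with points for libraries and bars for mean and SD of 3 libraries: the knockout mean runs from 14.9% to 35.4% and the control mean from 1.10% to 3.38%, depending on the length used.

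The summed FPKM of the 4 creatine kinases was 48.4, 36.6 and 41.6 in knockout replicates 1 to 3, against 31.9, 21.2 and 32.3 in control replicates 1 to 3. On this scale all knockout libraries were above all control libraries, which depended on the length used. Per principal transcript, knockout replicate 2 had 93.4 for Ckb and 15.3 for Ckm. Ckb alone had 120 in control replicate 1 and 120 in control replicate 3, so the groups overlapped on that scale. Mean FPKM was 42.2 ± 5.93 in knockout libraries and 28.4 ± 6.27 in control libraries (SD, n = 3 each). To the difference of the means, knockout minus control, Ckm contributed 14.1 FPKM and Ckb -0.35 FPKM.

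The genes of creatine supply were all expressed and none was called different. Gatm (ENSMUSG00000027199; chromosome 2, 122594467 to 122611303, minus strand), the first enzyme of creatine synthesis, was the rarest. It had 4.17, 5.06 and 4.20 CPM in knockout replicates 1 to 3, against 2.27, 3.71 and 4.22 CPM in control replicates 1 to 3. Control replicate 3 lay inside the knockout range, and the values of control replicates 1 and 2 rest on 33 and 10 reads. On the log2 scale Gatm differed by 0.42 (SE 0.29; 95% interval -0.26 to 1.11; edgeR adjusted p = 0.436).

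Gamt (ENSMUSG00000020150; chromosome 10, 80258151 to 80261012, minus strand), which completes creatine by methylation, had 19.4, 17.4 and 22.2 CPM in knockout replicates 1 to 3. Control replicates 1 to 3 had 13.8, 11.9 and 19.4 CPM. Control replicates 1 and 2 were below every knockout library, and control replicate 3 was level with knockout replicate 1. On the log2 scale Gamt differed by 0.36 (SE 0.21; 95% interval -0.12 to 0.84; edgeR adjusted p = 0.345).

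Slc6a8 (ENSMUSG00000019558; chromosome X, 73673150 to 73682502, plus strand), the creatine transporter, had 67.5, 55.6 and 69.5 CPM in knockout replicates 1 to 3. Control replicates 1 to 3 had 54.5, 92.0 and 57.3 CPM. The highest value was in the shallow control replicate 2, and the other controls lay near the lower end of the knockout range. On the log2 scale Slc6a8 differed by -0.06 (SE 0.21; 95% interval -0.56 to 0.43; edgeR adjusted p = 0.892). Without control replicate 2 the difference was 0.21 (edgeR adjusted p = 0.344).

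Of the 4 tested creatine genes other than Ckm, edgeR called 0, against 3.45% of all 16139 tested genes. At an unadjusted p under 0.05 there were also 0 of the 4, against 22.7% of all tested genes. DESeq2 and limma each called 0 of the 4, against 9.18% and 4.73% of all tested genes. The knockout and control libraries overlapped in all 4, whereas they did not overlap in 31.8% of tested genes. With 4 genes these shares say little about the group, and a p that misses the threshold does not show that levels were equal.

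Levels of the 7 genes were ranked per length. On the deposited FPKM the order in knockout libraries was Ckb (27.1 ± 2.91), Ckm (15.0 ± 3.13), Gamt (7.17 ± 0.950), Slc6a8 (6.48 ± 0.810) and Gatm (1.31 ± 0.139). In control libraries it was Ckb (27.5 ± 6.12), Slc6a8 (6.77 ± 1.31), Gamt (5.59 ± 1.86), Gatm (0.998 ± 0.308) and Ckm (0.952 ± 0.214; SD, n = 3 each). Slc6a8 and Gamt did not differ beyond their spread in either group, nor did Gatm and Ckm in controls. Per length of the principal transcript, Ckb was further ahead, at 105 ± 11.3 in knockout libraries and 107 ± 23.7 in control libraries. On that scale Gamt (19.8 ± 2.63), Slc6a8 (19.3 ± 2.41) and Ckm (18.5 ± 3.86) were level in knockout libraries. In control libraries the principal-transcript values were 20.1 ± 3.91 for Slc6a8, 15.5 ± 5.15 for Gamt, 1.42 ± 0.438 for Gatm and 1.17 ± 0.263 for Ckm.

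Whether reads of these genes can be told apart from those of near copies was measured on the annotated transcripts. The coding sequences of Ckm and Ckb were 76.1% identical over 1146 aligned positions, and each cytosolic gene was 59.5% to 60.7% identical to each mitochondrial gene. The longest stretch that Ckm and Ckb share in that alignment is 20 bases, shown as the closest match of the pair: atggccaaggtgctgacccc. It starts at base 88 of both coding sequences. The principal transcript of Ckm shared no window of 50 bases with Ckb, but 11.7% of its windows lay in the antisense gene A930016O22Rik. That gene overlaps Ckm and had 5, 9 and 10 counts in knockout replicates 1 to 3, against 4, 0 and 4 in control replicates 1 to 3. The strand setting of the counting is not given, so reads from the overlap cannot be assigned. For Ckb, 21.9% of windows also occur in Ckb-ps1, Ckb-ps2 or Gm12892, which had 0, 0 and 10 counts over all libraries.

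Among the protein-coding neighbours of Ckm edgeR made no call. Within 50 kb on either side lie 7 protein-coding genes, of which edgeR and limma called 0 and DESeq2 called 1, Ercc2. In edgeR 2 had an unadjusted p under 0.05. Of all tested genes, edgeR called 3.45%, limma 4.73% and DESeq2 9.18%, and 22.7% had an unadjusted p under 0.05. The nearest to the annotated span of Ckm are Klc3, a kinesin light chain gene 672 bases away, and Mark4, a kinase gene 1934 bases away. That span starts at 19404776 with a transcript that is not protein-coding. The protein-coding transcripts of Ckm start at 19411025 and 19411063, farther from Klc3. Klc3 averaged 23.6 ± 1.66 CPM in knockout libraries and 21.3 ± 0.289 CPM in control libraries (log2 fold change 0.15 ± 0.12, edgeR adjusted p = 0.526). Mark4 averaged 45.9 ± 8.67 CPM in knockout libraries and 34.4 ± 7.59 CPM in control libraries (log2 fold change 0.44 ± 0.20, edgeR adjusted p = 0.243). The smallest p was that of the DNA repair gene Ercc2, with 33.7, 29.0 and 36.4 CPM in knockout replicates 1 to 3 and 20.1, 26.0 and 20.7 CPM in control replicates 1 to 3. Its groups did not overlap, as in 31.8% of all tested genes. The log2 fold change of Ercc2 was 0.59 (SE 0.16; edgeR adjusted p = 0.0801, DESeq2 adjusted p = 0.0335).

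**Figure D3:**
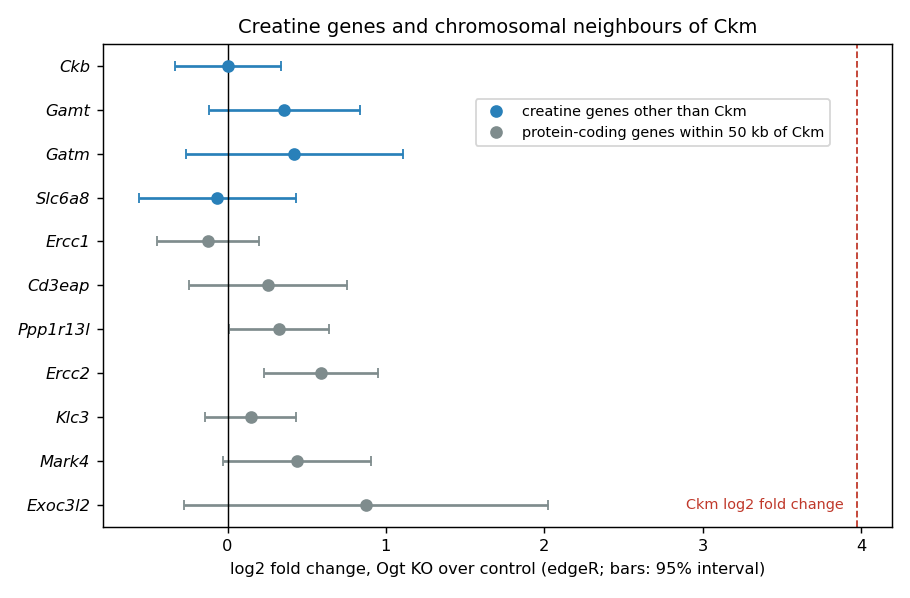
Log2 fold change of Ogt knockout over control (x axis) with 95% intervals from edgeR, for the 4 tested creatine genes other than Ckm and the 7 protein-coding genes within 50 kb of Ckm (y axis). The points lie between -0.12 for Ercc1 and 0.87 for Exoc3l2, and the dashed line marks Ckm at 3.97.

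Ckm is a standard marker of striated muscle, so the markers of skeletal and cardiac muscle are given beside it. Of 25 skeletal muscle markers, 12 were tested, and by edgeR 1 was higher, 1 was lower and 10 were not called, while DESeq2 and limma each called 3. In all, 1.9% of tested genes were higher and 1.56% lower by edgeR, while DESeq2 called 9.18% and limma 4.73%. An unadjusted p under 0.05 was found for 4 of the 12, against 22.7% of all tested genes. Tnnt1, the slow skeletal troponin T gene, rose to 12.8, 13.0 and 12.8 CPM in knockout replicates 1 to 3, against 4.47, 4.82 and 4.36 CPM in control replicates 1 to 3. Casq1, the calcium store protein of the skeletal sarcoplasmic reticulum, fell to 12.8, 13.5 and 24.0 CPM in knockout replicates 1 to 3, against 74.3, 58.2 and 74.4 CPM in control replicates 1 to 3. Both genes separated the groups in opposite directions. Log2 fold changes were 1.51 ± 0.16 for Tnnt1 and -2.04 ± 0.26 for Casq1, with edgeR adjusted p-values of 0.0123 and 0.0184.

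Neb, the thin filament ruler, and Des, desmin, also had every knockout library above every control library but were not called by edgeR, while DESeq2 and limma called Neb. The groups did not overlap in 31.8% of all tested genes. Neb averaged 4.46 ± 0.661 CPM in knockout libraries and 1.84 ± 1.33 CPM in control libraries (edgeR adjusted p = 0.108, DESeq2 0.0426, limma 0.0446), and Des 309 ± 21.6 CPM in knockout libraries and 202 ± 54.5 CPM in control libraries (edgeR adjusted p = 0.124).

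Several skeletal muscle genes, picked with their values known, were found at low levels in both groups. Acta1, skeletal actin, averaged 0.742 CPM in knockout libraries and 1.42 CPM in control libraries. Mylpf, the fast regulatory light chain gene, averaged 1.17 CPM in knockout libraries and 0.733 CPM in control libraries, and Mb, myoglobin, 0.541 CPM in knockout libraries and 0.614 CPM in control libraries. Pvalb, Cacna1s and Mybpc1 had 0 counts in all 6 libraries. Other markers of the list were higher in both groups. Eno3 averaged 19.1 CPM in knockout libraries and 21.2 CPM in control libraries, Mybpc2 5.01 and 4.78 CPM, and Tnnt3 3.62 and 3.42 CPM. The median log2 fold change of the 12 tested markers was 0.10, beside -0.01 for all tested genes. The summed level of the 25 markers, most of it from desmin, which smooth muscle also makes, was 363 to 398 CPM in knockout libraries and 274 to 383 CPM in control libraries.

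**Figure D4:**
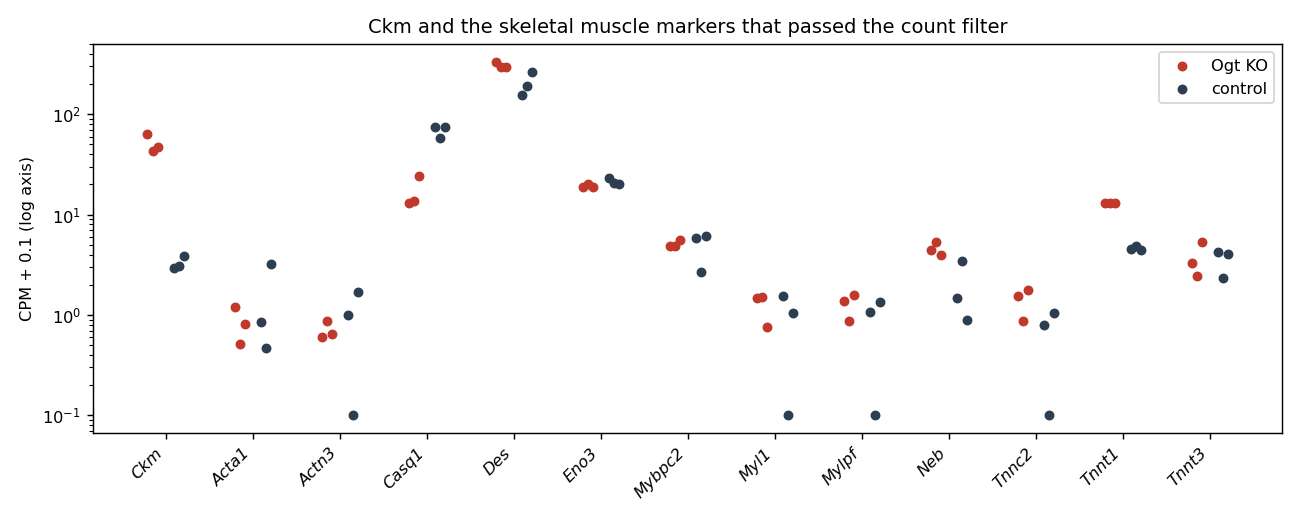
CPM plus 0.1 on a log axis for Ckm and the 12 skeletal muscle markers that passed the count filter, by library, with Ogt knockout left of control for each gene. Ckm, Tnnt1, Neb and Des are higher and Casq1 is lower in all knockout libraries, while Acta1, Mylpf, Myl1 and Actn3 stay at or below 3.13 CPM with overlapping groups.

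Of 16 cardiac muscle markers, 11 were tested, and by edgeR 2 were higher and 9 were not called, while DESeq2 and limma each called 2. Of all tested genes, 1.9% were higher by edgeR, DESeq2 called 9.18%, limma called 4.73%, and 22.7% had an unadjusted p under 0.05. In the list 4 had an unadjusted p under 0.05, which were Actc1, Ankrd1, Myl4 and Tnnt2. Myl4 was higher in knockout libraries (log2 fold change 0.69, edgeR adjusted p = 0.166) and Tnnt2 was lower (-0.49, 0.164), and neither was called. Actc1, cardiac actin, rose to 17.7 ± 4.06 CPM in knockout libraries, against 3.37 ± 2.02 CPM in control libraries (SD, n = 3 each; log2 fold change 2.21 ± 0.37, edgeR adjusted p = 0.0321). Ankrd1, a cardiac stress protein gene, rose to 24.8 ± 4.06 CPM in knockout libraries, against 11.6 ± 1.49 CPM in control libraries. The median of the list was 0.29. The summed level of the list was 144 to 178 CPM in knockout libraries and 136 to 346 CPM in control libraries. Ryr2, whose groups overlapped, gave 78.4 of a mean 164 CPM in knockout libraries and 164 of 221 CPM in control libraries. It had 301 CPM in the shallow control replicate 2, where the sum was highest. Among M-band proteins, part of the sarcomere structure to which the muscle creatine kinase binds, edgeR called 0 of 5 tested genes of 9, 0 had an unadjusted p under 0.05, and DESeq2 and limma called 0. Myom1 averaged 1479 ± 118 CPM in knockout libraries and 1357 ± 194 CPM in control libraries, and Myom3 2.67 ± 0.638 CPM in knockout libraries and 3.16 ± 0.477 CPM in control libraries. The part of striated muscle cells in the level of Ckm was not tested.

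The transcription factors known to drive striated muscle creatine kinase genes were listed next. The 4 myogenic factors Myod1, Myog, Myf5 and Myf6 had 0 counts in all 6 libraries. Of the 16 regulators, 11 were tested. edgeR and limma called 0, DESeq2 called 2, and 3 had an unadjusted p under 0.05. The shares of all tested genes were 3.45% for edgeR, 4.73% for limma, 9.18% for DESeq2 and 22.7% at the unadjusted threshold. Srf, serum response factor, averaged 54.0 ± 3.72 CPM in knockout libraries and 90.1 ± 18.1 CPM in control libraries (log2 fold change -0.73 ± 0.17, edgeR adjusted p = 0.0583). The median of the list was -0.25.

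Other genes of the creatine pathway and of high-energy phosphate exchange were listed in 4 groups, whose counts stand beside the 3.45% of all tested genes that edgeR called and the 22.7% with an unadjusted p under 0.05. Of 22 genes that supply arginine, glycine and methyl groups for creatine synthesis, 17 were tested and edgeR, DESeq2 and limma called 0, with 4 at an unadjusted p under 0.05. The smallest p-values were those of the urea cycle genes Asl (20.5 ± 1.47 CPM in knockout libraries, 14.7 ± 1.84 CPM in control libraries, edgeR adjusted p = 0.128) and Ass1 (7.62 ± 1.09 CPM in knockout libraries, 4.79 ± 1.24 CPM in control libraries, edgeR adjusted p = 0.165), which make arginine. The median log2 fold change of this list was -0.18. Of 6 genes of other creatine-related transport and phosphocreatine hydrolysis, 4 were tested and 1 was lower, by all 3 tools, which was also the 1 with an unadjusted p under 0.05. It was Slc16a9, a gene of the monocarboxylate carrier family, with 6.55, 7.12 and 6.76 CPM in knockout replicates 1 to 3 and 11.6, 11.1 and 13.6 CPM in control replicates 1 to 3 (log2 difference -0.84 ± 0.16, edgeR adjusted p = 0.0431). The median of the 4 was 0.03.

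Adenylate kinases, which regenerate ATP from ADP beside the creatine system, and AMP deaminases made up a list of 12 genes with 8 tested, of which 3 had an unadjusted p under 0.05. Ak4, the mitochondrial matrix adenylate kinase induced by low oxygen, was the 1 called by edgeR, DESeq2 and limma, and rose to 13.5, 12.9 and 13.7 CPM in knockout replicates 1 to 3, against 6.60, 4.08 and 7.34 CPM in control replicates 1 to 3. The groups were apart by more than the spread within either. Its log2 fold change was 1.09 (SE 0.21; edgeR adjusted p = 0.043), and the median of the list was 0.23. Of 7 carriers and porins that work beside mitochondrial creatine kinase, 6 were tested and edgeR, DESeq2 and limma called 0, with 2 at an unadjusted p under 0.05. These were Vdac3, an outer membrane porin (59.5 ± 1.76 CPM in knockout libraries, 41.8 ± 7.68 CPM in control libraries, edgeR adjusted p = 0.109), and Slc25a5, an ADP/ATP carrier (133 ± 8.04 CPM in knockout libraries, 98.6 ± 14.2 CPM in control libraries, edgeR adjusted p = 0.128). The median of these carriers was 0.02.

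Leaving out single libraries ended most of these calls. Of the 6 such fits, Tnnt1 and Actc1 passed in 2, Casq1 in 3, and Ankrd1, Slc16a9 and Ak4 in 1, the one without control replicate 2. Their highest edgeR adjusted p-values in these fits were 0.0844 for Tnnt1, 0.145 for Actc1, 0.112 for Casq1, 0.162 for Ankrd1, 0.200 for Slc16a9 and 0.190 for Ak4.

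Other tissues in which creatine genes are abundant are brown fat, where Ckb, Gatm and Slc6a8 serve creatine-dependent heat production, and nerve, where Ckb is the cytosolic form. Of 13 brown adipocyte markers, 12 were tested and 5 were lower by edgeR, with 9 at an unadjusted p under 0.05 and a median log2 fold change of -1.04. Among all tested genes, 1.56% were lower by edgeR and 22.7% had an unadjusted p under 0.05. DESeq2 called 8 and limma 5, beside 9.18% and 4.73% of all tested genes. The further 3 of DESeq2, also lower, were Dio2, Slc27a2 and Prdm16. Ucp1, the uncoupling protein of brown fat, fell to 8.34, 6.71 and 6.05 CPM in knockout replicates 1 to 3, against 36.6, 38.9 and 39.5 CPM in control replicates 1 to 3. Pank1 (log2 fold change -0.94), Cox8b (-1.41), Kcnk3 (-1.25) and Cox7a1 (-1.78) were the other members that fell by edgeR, and of the 5 only Ucp1 passed in all 6 fits with a library left out. The summed level of the list was 200 to 259 CPM in knockout libraries and 347 to 512 CPM in control libraries. Prdm16, whose groups overlapped, gave 109 of a mean 220 CPM in knockout libraries and 187 of 409 CPM in control libraries. Cidea (log2 fold change -0.34, edgeR adjusted p = 0.369) and Adrb3 (0.06, 0.909) were not called, and their groups overlapped. Ckb, Gatm and Slc6a8 overlapped between the same groups, and the part of brown fat in their levels was not tested.

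Of 17 neuron and glia markers, 9 were tested and 1 rose, by all 3 tools, with 2 at an unadjusted p under 0.05. Uchl1, a ubiquitin hydrolase of neurons, averaged 99.7 ± 13.8 CPM in knockout libraries and 45.1 ± 11.0 CPM in control libraries (log2 difference 1.13 ± 0.19, edgeR adjusted p = 0.0331), and passed in 2 of 6 fits with a library left out. The median of these markers was 0.34, and their summed level was 145 to 158 CPM in knockout libraries and 72.0 to 99.96 CPM in control libraries. Most of that sum was Uchl1, at 99.7 of a mean 150 CPM in knockout libraries and 45.1 of 84.7 CPM in control libraries. Smooth muscle markers, 14 tested of 14, had 1 member lower by edgeR, Tagln, with 2526 ± 297 CPM in knockout libraries and 5553 ± 1138 CPM in control libraries (edgeR adjusted p = 0.0331, in 1 of 6 such fits). DESeq2 called 4 of them, with Actg2 and Synpo2 also lower, limma called 2, and 6 had an unadjusted p under 0.05 in edgeR. Among all tested genes, edgeR called 3.45%, DESeq2 9.18% and limma 4.73%, and 22.7% had an unadjusted p under 0.05. Tpm2, a tropomyosin gene, differed the other way, with 2447 ± 121 CPM in knockout libraries and 1549 ± 216 CPM in control libraries (log2 difference 0.66, edgeR adjusted p = 0.0581, DESeq2 0.000632, limma 0.0425). Their median was -0.17 and their sum 31378 to 38096 CPM in knockout libraries and 36009 to 43551 CPM in control libraries. The labelled tissue thus showed its defining smooth muscle markers in every library.

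Adipocyte, endothelial, fibroblast and macrophage markers had 0 calls by edgeR, DESeq2 or limma among 11, 11, 8 and 10 tested genes. The shares of all tested genes were 3.45% for edgeR, 9.18% for DESeq2 and 4.73% for limma. In lists this short, 0 calls say little about the cell types. At an unadjusted p under 0.05 there were 2, 0, 2 and 0, against 22.7% of all tested genes. Their medians were -0.03, 0.36, -0.06 and 0.27. Their smallest p-values belonged to Lep (log2 fold change 1.55, edgeR adjusted p = 0.0752), Pecam1 (0.67, 0.249), Pdgfra (-0.41, 0.157) and Cd14 (0.49, 0.299). Their summed levels overlapped between the groups, with endothelial markers at 795 to 1842 CPM in knockout libraries and 944 to 1123 CPM in control libraries.

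The genes most like Ckm and most like Ckb were found among 15387 other tested genes with a mean of at least 1 CPM. The measure was the root mean square difference between log2 profiles over the 6 libraries, each centred on its own mean. For Ckm they were Camkk1 (0.47), Ctxn1 (0.53), Syngr3 (0.66), P2rx1 (0.68) and Haus8 (0.70), beside a median of 1.92 over all these genes. All 5 were higher in the knockout, as any gene close to Ckm on this measure has to be. P2rx1, an ATP-gated channel gene, averaged 541 ± 61.8 CPM in knockout libraries and 87.4 ± 41.5 CPM in control libraries, and Haus8, a gene of the mitotic spindle, 258 ± 25.5 CPM in knockout libraries and 46.6 ± 8.65 CPM in control libraries. For Ckb they were H2aw (0.04), Thap11 (0.04), Tmem181b-ps (0.04), Ppard (0.05) and Fis1 (0.05), beside a median of 0.30.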

How the data were processed

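RNA-seq of whole mouse aorta was analysed from 3 Ogt knockout and 3 control libraries, grouped by their titles. CASAVA 1.8, HISAT2, SAMtools 1.3.1, edgeR and the build GRCm39 appear in the submitters' processing notes. How reads were counted, and whether strand was used, is not given in the sources used here. Positions in the deposited table were identical to GENCODE M21 (GRCm38) for 99.4% of 55141 shared identifiers, so they are given as GRCm38.

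The authors deposited whole-number read counts per gene and FPKM values, per the file headers. FPKM equalled the count over the library total and 1 length per gene. For 97.6% of 15803 genes with at least 20 counts in a library, that length matched the sum of distinct GENCODE exons within 0.5%, and for 21.4% the union of exons. No numeric column was left unmapped.

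Counts were filtered with filterByExpr, scaled by TMM and compared with edgeR 4.0.16 in R 4.3.3 (glmQLFit and glmQLFTest, robust), with Benjamini-Hochberg adjustment over all 16139 tested genes and a threshold of 0.05. Standard errors are the log2 fold change over the square root of F. The filter's minimum of 10 counts at the median library total is 0.75 CPM on unadjusted totals. All 5 tested members were above it in all 3 libraries of each group. DESeq2 1.42.0 without independent filtering and limma 3.58.1 (voom) were alternatives, with other scalings, no filter, a replicate block and each library left out. The steps were tested on simulated counts. Replicates of a group were no copies of each other (average chi-square per gene 15.5 to 152). Sequences came from RefSeq (GRCm38.p6) and GENCODE M21 transcripts.

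The members and the 16 gene lists were chosen with earlier results of these data known. Genes named are the 7 members, up to 4 called genes of each list or otherwise those with the smallest p, 5 genes most like Ckm and Ckb, and neighbours of Ckm. Cox7a1, Dio2, Slc27a2, Prdm16, Cidea, Adrb3, Tpm2, Actg2, Synpo2, Neb, Des and Myom1 are named outside this rule, with their values known. So are the low skeletal markers, Eno3, Mybpc2, Tnnt3, Myl4, Tnnt2 and Ryr2. Some genes within the rule are not reported here.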

Additional observations from a re-analysis of the deposited data

How the results depend on the processing

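The count of genes called over the whole table was 557, and 1481 with DESeq2 and 28 with the replicate number as a block. With each library left out it ran from 7 to 911. Leaving out knockout replicates 1, 2 and 3 gave 12, 13 and 33 calls, and leaving out control replicates 1, 2 and 3 gave 7, 911 and 280. None of Ckb, Gamt, Gatm and Slc6a8 was called in any of the 12 alternatives, the replicate block included, where the log2 fold changes were 0.01, 0.40, 0.43 and -0.04. Gamt and Gatm had positive log2 fold changes in all 12, from 0.25 to 0.60 and from 0.15 to 0.69. The log2 fold change of Ckb, near 0, had the other sign with DESeq2 (-0.0036), limma (-0.0012), upper-quartile scaling (-0.017), without knockout replicate 1 (-0.07) and without control replicate 2 (-0.10). That of Slc6a8 had the other sign with limma (0.028), without knockout replicate 2 (0.03) and without control replicate 2 (0.21). With a library left out, Ckb ran from -0.10 to 0.080 and Slc6a8 from -0.21 to 0.21. Ckm stayed between 3.80 and 4.15 in all 12. The mean Ckm share of 35.4% in knockout libraries and 3.38% in control libraries became 24.5% and 2.03% in counts, 24.4% and 2.02% per union of exons, and 14.9% and 1.10% per principal transcript, the last 2 added after seeing the data. With a library left out it ran from 34.0% to 36.2% in knockout libraries and from 3.23% to 3.69% in control libraries. Same-numbered libraries deviated from their group means with correlations of 0.05, 0.09 and -0.06, and not every library correlated best with that of its own number. With 3 libraries per group, these values cannot decide whether same-numbered libraries were handled as pairs. The shared replicate numbers come from the titles alone, since the column headers give no number to both a control and a knockout library. Depth limits Ckmt1 and Ckmt2 in all libraries, and Ckm and Gatm in control replicate 2, where they had 8 and 10 counts.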

Other observations

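The lengths behind the deposited FPKM count an overlapping exon again for each annotated form, so the FPKM of a gene with many such forms is lower by construction. For the detected creatine genes the length used was 3374 bases for Ckm, 5703 for Ckb, 2732 for Gamt, 3398 for Gatm and 9867 for Slc6a8. The principal transcripts measure 2742, 1472, 988, 2389 and 3314 bases in the same order. Comparisons of 1 gene between libraries are not touched by this, while comparisons between genes are.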
